A study of Mus musculus with 37 samples.

Results

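Oxidative phosphorylation genes were examined as 1 set in the brains of mice that carry 1, 2 or 3 copies of the chromosome 7 segment syntenic to human 16p11.2. The set holds every gene measured by a probe set with a single gene symbol that begins with Nduf, Uqcr, Atp5, Sdha, Sdhb, Sdhc or Sdhd, or with Cox followed by 4, 5, 6, 7 or 8. This rule gave 93 of the 19938 genes on the array, from 119 probe sets, and each gene was represented by its probe set with the highest mean. The names divide into 36 genes of complex I, 4 of complex II, 8 of complex III, 17 of complex IV, 17 of complex V and 11 assembly factors, so that 82 genes were counted as subunits. Cox7c and Ndufb4 were measured only by probe sets that list several genes and are not among them.

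The groups were df/+ males with 1 copy (2 mice), dp/+ males with 3 copies (3 mice) and +/+ males with 2 copies (3 mice). All 8 mice were F1 C57BL/6N:129Sv animals. Olfactory bulb, cortex, cerebellum and brain stem were taken from each mouse, which gave 31 samples after repeat arrays of 6 samples were averaged, with no cortex sample of dp/+ mouse 3. Total RNA was measured on Affymetrix whole-transcript arrays, and every value below is a log2 RMA value or a difference of such values. The p-values between genotypes rest on the spread between these few mice. Those between regions rest on how the regional differences vary among the mice.

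Oxidative phosphorylation is carried out in the inner mitochondrial membrane. Complexes I and II take electrons from NADH and succinate, complex III passes them to cytochrome c, complex IV passes them to oxygen, and complex V uses the proton gradient that complexes I, III and IV build to make ATP. Neurons depend heavily on this supply, and several complex IV and complex V subunits exist as isoforms that differ between tissues. The transcription factor NRF-1 and ETS-family factors are known regulators of the nuclear genes for these subunits.

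The rule did not use promoter sequence, so 300-base windows around the gene starts (250 bases before to 50 after, RefSeq, GRCm38.p6) were searched on both strands. Windows were found for 77 of the 93 genes. The NRF-1 motif, GCGCA followed by any base and then GCGC, was present in 20 of these 77 (26%), against 5.19% of all 27025 genes with a window and 7.17% of protein-coding genes. The ETS core, CCGGAAG, was present in 21 (27.3%), against 9.93% of all genes and 12.9% of protein-coding genes, and 5 genes held both motifs. The NRF-1 matches lay in 6 genes of complex I, 2 of complex II, 1 of complex III, 1 of complex IV, 6 of complex V and 4 assembly factors. A match is a description of the sequence and not evidence of binding. The stretches below, 1 from most of these groups, are shown to make the shared motif visible; each is given 5′ to 3′ on the strand of its gene, in GRCm38.p6 coordinates, with the motif in capitals. They come from Ndufa11 (chr17:56717687-56717726, plus strand), Sdha (chr13:74350271-74350310, minus strand), Cox6a1 (chr5:115349051-115349090, minus strand), Atp5k (chr5:108434425-108434464, minus strand), Atp5g2 (chr15:102671065-102671104, minus strand) and the assembly factor Ndufaf4 (chr4:24897955-24897994, plus strand).
Ndufa11: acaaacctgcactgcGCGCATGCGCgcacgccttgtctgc
Sdha: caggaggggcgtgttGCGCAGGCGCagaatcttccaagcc
Cox6a1: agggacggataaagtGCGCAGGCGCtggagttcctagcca
Atp5k: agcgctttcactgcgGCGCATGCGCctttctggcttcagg
Atp5g2: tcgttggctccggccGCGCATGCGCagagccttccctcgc
Ndufaf4: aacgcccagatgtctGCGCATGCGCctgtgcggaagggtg

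The labelled regions were checked against marker genes. The markers of each region were highest on average in their own region, and 3 brain stem samples carried markers of another region as well. The cortical transcription factor Tbr1 read 8.49 and 9.08 in the brain stem of +/+ mice 1 and 2, against 6.45 in +/+ mouse 3 and 5.79 to 7.13 in the df/+ and dp/+ brain stems. The brain stem of dp/+ mouse 1 read 7.13 for Tbr1 and 9.05 for Gabra6, a receptor subunit of cerebellar granule cells, against 5.70 to 6.80 for Gabra6 in the other brain stems. Where leaving out these 3 samples changed a brain stem count or a named gene's call between brain stem and cortex, the value without them is also given. Leaving them out keeps only 1 +/+ brain stem, so that +/+ values without them rest on 1 mouse and their tests on the spread within the other regions. The olfactory bulb of +/+ mouse 1 also stood apart for the genes of this set, since 87 of the 93 lay above their mean over the 3 +/+ bulbs there. The bulb counts that involve this sample are also given without it.

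The plot of complex means shows the average of each complex in every sample.

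**Figure D1:**
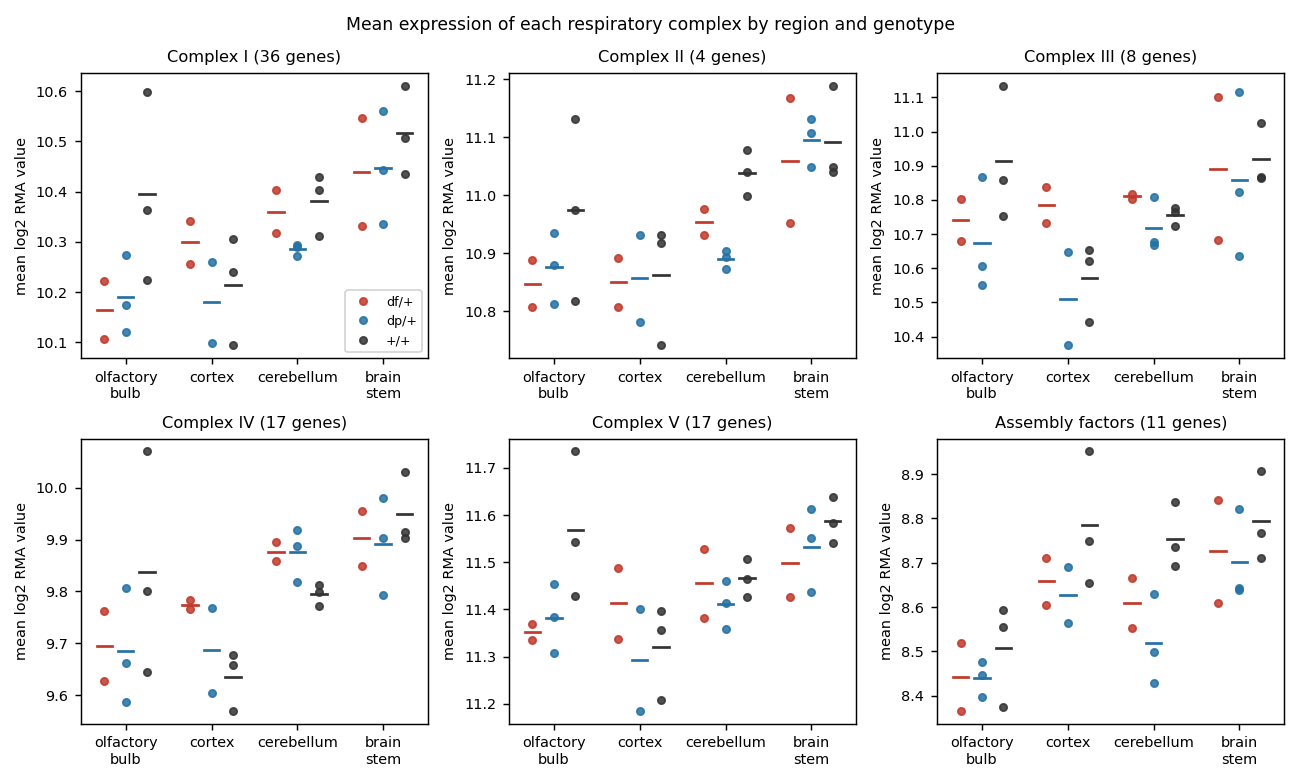
Mean log2 RMA value over the genes of each complex (vertical axes) in each of 31 samples, by region (horizontal axes) and genotype (df/+ red, dp/+ blue, +/+ dark grey); points are mice and bars are group means. Within each genotype the brain stem bar is the highest in each panel of complexes I to V, although single brain stem points overlap those of other regions. The highest +/+ bulb point is +/+ mouse 1, and the genotypes overlap in most regions.

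The genes of the set were more alike between repeat arrays than most genes, with a median technical SD of 0.0666, against 0.0946 over all genes. Their median SD between mice of the same genotype and region was 0.152, against 0.126 over all genes. The heat map shows every gene in every sample and makes visible that many of them were high or low together in a sample.

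**Figure D2:**
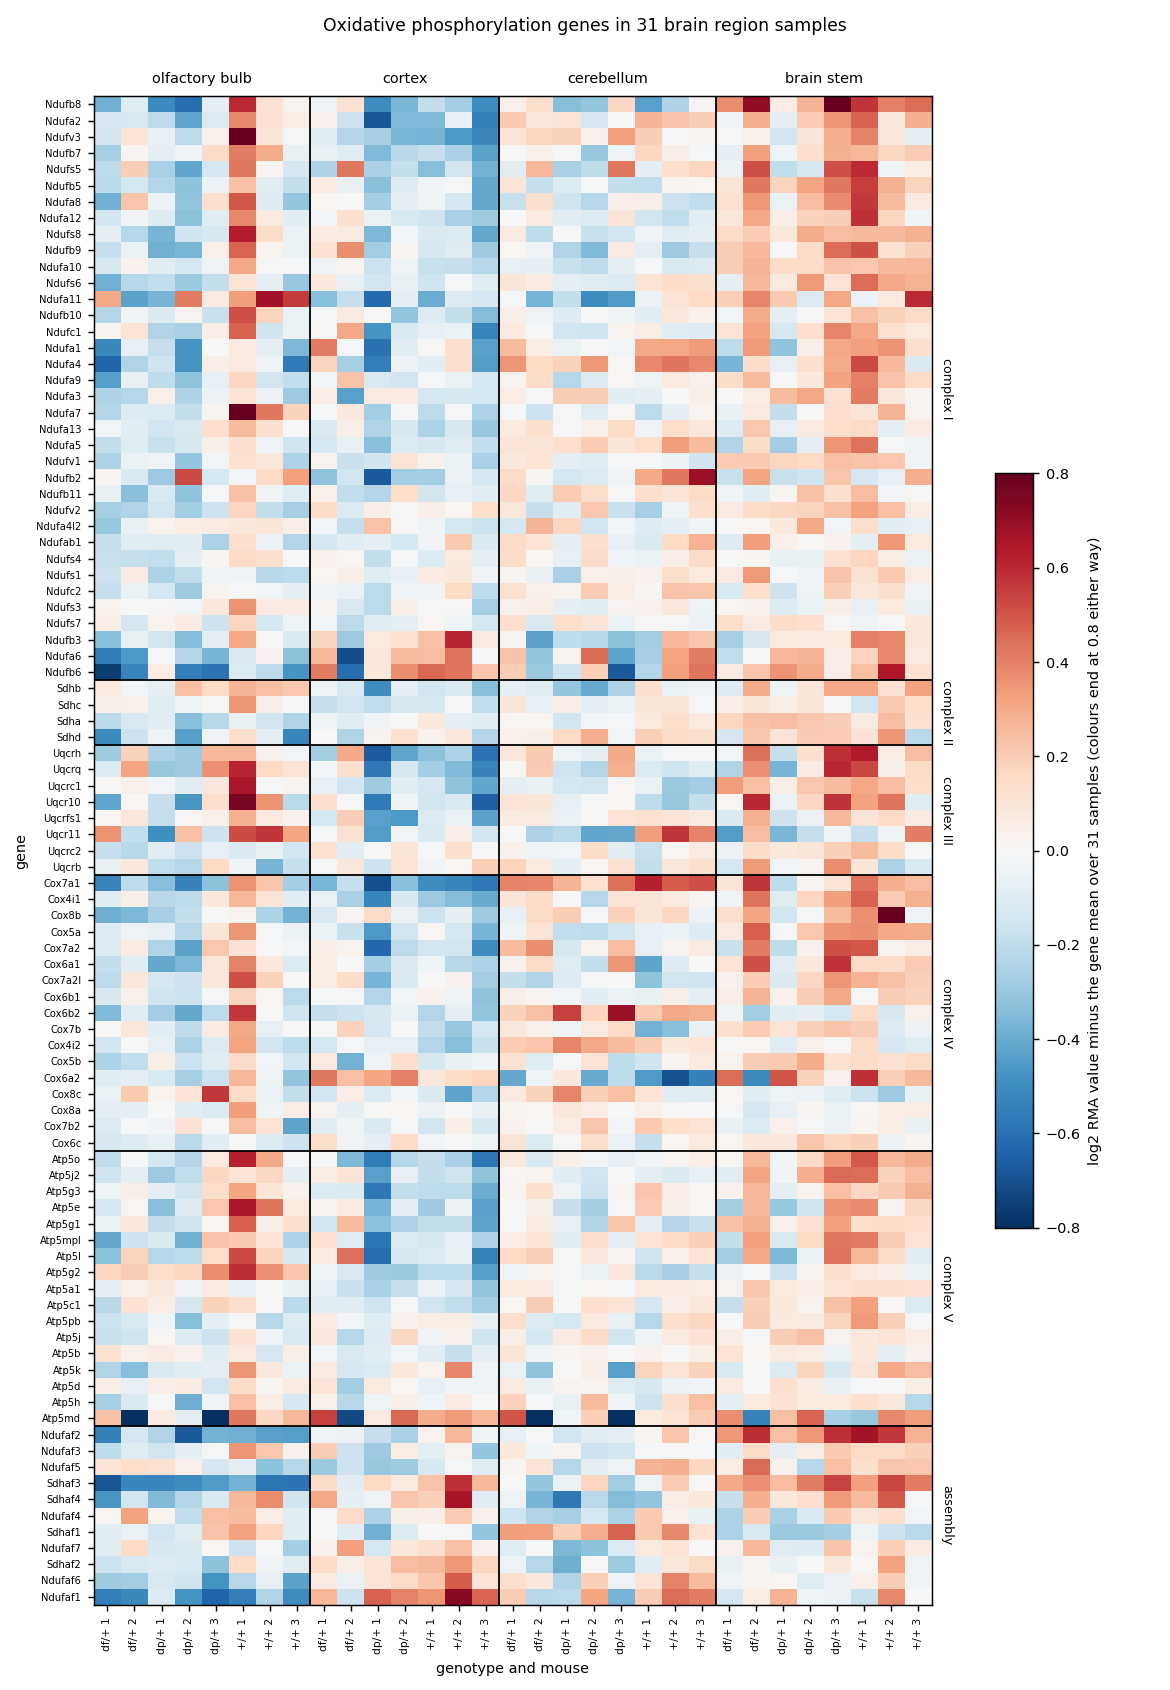
Log2 RMA value minus the gene's mean over the 31 samples (colour, red high, blue low, ending at 0.8 either way) for the 93 genes (rows, by complex) in every sample (columns, by region and, within it, df/+, dp/+ and +/+ mice). Many rows of complexes I to V are red in most brain stem columns, less so in those of df/+ mouse 1 and dp/+ mouse 1. Many are blue in several cortex columns, and the column of the +/+ mouse 1 bulb is red over most rows.

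Far more genes of the set passed the tests between regions than those between genotypes. In a limma F test over the 4 regions with each mouse as a block, 67 of the 93 genes differed between regions in the df/+ and dp/+ mice (19 samples) and 60 of 93 differed in the +/+ mice (12 samples), at an adjusted p under 0.05 over all 19938 genes. The background was high, since 70.4% of all genes passed in the df/+ and dp/+ mice and 58% in the +/+ mice, so the number of regional genes was near that of the array as a whole. What differed from the background was the direction. In whole tissue, a difference in the number of cells of a type and a difference in RNA per cell cannot be told apart.

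Brain stem stood above cortex for subunits of all 5 complexes. In the df/+ and dp/+ mice, 34 of 93 genes were higher in brain stem than in cortex and 0 were lower, where 17.4% of all genes were higher and 14.9% lower. In the +/+ mice, which share no sample with the df/+ and dp/+ mice, 44 were higher and 1 was lower, where 13.9% of all genes were higher and 13.4% lower. The median difference of the 93 genes was 0.14 in df/+ and dp/+ mice (all genes -0.015) and 0.27 in +/+ mice (all genes 0.028). The genes past the threshold in both groups of mice numbered 25, all higher in brain stem, which is 73.5% of the calls in df/+ and dp/+ mice and 55.6% of those in +/+ mice. Over all genes, the calls shared in direction made up 66.1% of those in df/+ and dp/+ mice and 78.4% of those in +/+ mice. Without the 3 brain stem samples that carry markers of other regions, 27 genes were higher and 0 lower in df/+ and dp/+ mice (median 0.16), where 16.1% of all genes were higher and 13.9% lower. In the +/+ mice, with 1 brain stem left, 20 were higher and 1 lower (median 0.27), where 9.11% of all genes were higher and 7.86% lower. The number called higher was 22 in df/+ and dp/+ mice without df/+ mouse 2 or without dp/+ mouse 1, and 23 in +/+ mice without +/+ mouse 3. All brain stem values lay above all cortex values within each of the 3 genotypes for 16 of the 93 genes (17.2%), against 11.2% of all genes. Oligodendrocyte markers were also highest in the brain stem, with a mean over the 4 markers of 11.70 to 11.97 in the brain stem samples and at most 11.12 in the others; their part in these differences was not tested.

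Single mice followed this order with 1 exception. Among the 82 subunits, those with a higher value in brain stem than in cortex numbered 41 in df/+ mouse 1 and 74 in df/+ mouse 2, 77 and 68 in dp/+ mice 1 and 2, and 71, 72 and 78 in the +/+ mice. In df/+ mouse 1 the subunits were thus divided evenly between the 2 regions. Its brain stem values lay below the mean of the +/+ brain stem samples for 80 of the 93 genes. The scatter plot of the brain stem to cortex differences sets the 2 groups of mice against each other.

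**Figure D3:**
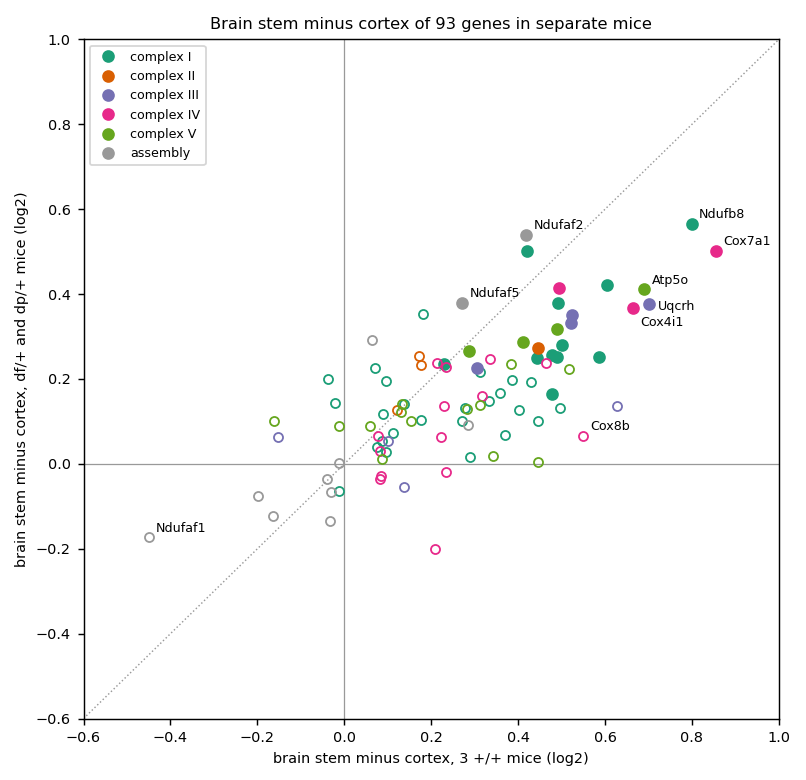
Brain stem minus cortex difference (log2) of each of the 93 genes in the +/+ mice (horizontal axis) and in the df/+ and dp/+ mice (vertical axis), coloured by complex; filled points passed the limma test in both groups of mice and the dotted line marks equal differences. The filled points all lie above 0 on both axes, with Ndufb8 and Cox7a1 farthest from the origin.

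Of all genes, 17.4% were higher in brain stem than in cortex in df/+ and dp/+ mice and 13.9% in +/+ mice. These shares are the background for each complex. In complex I, 14 of 36 genes were higher in brain stem than in cortex in df/+ and dp/+ mice and 21 of 36 in +/+ mice, with none lower in either. Without the 3 marked brain stems, 10 were higher in df/+ and dp/+ mice and 6 in +/+ mice. Ndufb8, an accessory subunit of the membrane arm, read 10.48 and 10.82 in the df/+ brain stems, 10.17, 10.38 and 10.91 in the dp/+ brain stems and 10.68, 10.51 and 10.56 in the +/+ brain stems. In cortex it read 10.08 and 10.23 in df/+, 9.62 and 9.74 in dp/+ and 9.92, 9.83 and 9.61 in +/+ mice. Every brain stem value of Ndufb8 exceeded the cortex values of the same genotype. Brain stem minus cortex was 0.57 ± 0.061 (SE, limma adjusted p = 8.12e-07) in df/+ and dp/+ mice and 0.80 ± 0.14 (adjusted p = 0.000374) in +/+ mice. The accessory subunit Ndufa10 (0.25), the core subunit Ndufs7 (0.23), which carries an iron-sulfur cluster, and Ndufb5 (0.38) followed with the next smallest p-values in df/+ and dp/+ mice. In +/+ mice these were the accessory subunits Ndufb7 (0.50), Ndufa2 (0.61) and Ndufv3 (0.59). Ndufv3 lost its call in +/+ mice without the marked brain stems (0.51, limma adjusted p = 0.0824).

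Complex II is the smallest complex and is also an enzyme of the tricarboxylic acid cycle. In df/+ and dp/+ mice 3 of its 4 genes were higher in brain stem than in cortex, namely Sdha, the flavoprotein (0.25), Sdhc, a membrane anchor (0.23), and Sdhb, the iron-sulfur subunit (0.27). In +/+ mice only Sdhb passed, with a difference of 0.45 ± 0.089 (SE, limma adjusted p = 0.00134), while Sdha differed by 0.17 and Sdhc by 0.18. Without the marked brain stems Sdhb lost its call in df/+ and dp/+ mice (0.26, limma adjusted p = 0.0713). The test of Sdha over the 4 regions in +/+ mice lost its call without +/+ mouse 2, without +/+ mouse 3 and without the marked brain stem samples.

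Complex III had 4 of 8 genes higher in brain stem than in cortex in df/+ and dp/+ mice and 5 of 8 in +/+ mice. Without the marked brain stems these were 3 in df/+ and dp/+ mice and 4 in +/+ mice. Uqcrh, the hinge protein, read 11.75 and 12.21 in df/+, 11.59, 11.90 and 12.36 in dp/+ and 12.41, 11.83 and 12.02 in +/+ brain stems. In cortex it read 11.50 and 12.07 in df/+, 11.11 and 11.36 in dp/+ and 11.44, 11.53 and 11.18 in +/+ mice. The regions did not overlap in dp/+ and +/+ mice and overlapped in df/+ mice. The difference was 0.38 ± 0.088 (SE, limma adjusted p = 0.0026) in df/+ and dp/+ mice and 0.70 ± 0.12 (adjusted p = 0.000262) in +/+ mice. The core protein Uqcrc1 (0.35 in df/+ and dp/+, 0.52 in +/+) and the small subunit Uqcr10 (0.33 in df/+ and dp/+, 0.52 in +/+) also passed in both. Uqcrfs1, the Rieske iron-sulfur protein, was 0.23 higher in df/+ and dp/+ mice, and Uqcrq, a small subunit, was 0.63 higher in +/+ mice but only 0.14 higher, short of the threshold, in df/+ and dp/+ mice. Without the marked brain stems the calls were lost for Uqcrfs1 in df/+ and dp/+ mice (0.23, limma adjusted p = 0.0683) and for Uqcr10 in +/+ mice (0.48, limma adjusted p = 0.179).

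In complex IV, 6 of 17 genes were higher in brain stem than in cortex in each group of mice. Without the marked brain stems these were 5 in df/+ and dp/+ mice and 4 in +/+ mice. Cox7a1, the heart and skeletal muscle isoform of subunit VIIa, read 8.32 and 8.79 in df/+, 8.02, 8.24 and 8.33 in dp/+ and 8.65, 8.51 and 8.47 in +/+ brain stems. In cortex it read 7.85 and 8.04 in df/+, 7.52 and 7.89 in dp/+ and 7.72, 7.70 and 7.65 in +/+ mice, so no cortex value reached the brain stem values of its genotype. Its difference was 0.50 ± 0.094 (SE, limma adjusted p = 0.000333) in df/+ and dp/+ mice and 0.85 ± 0.11 (adjusted p = 1.83e-05) in +/+ mice. Cox4i1, the widely expressed isoform of subunit IV, differed by 0.37 in df/+ and dp/+ mice and 0.66 in +/+ mice, and Cox5a, its partner early in assembly, by 0.41 in df/+ and dp/+ mice and 0.50 in +/+ mice. Cox6a1, the widely expressed isoform of subunit VIa, passed in df/+ and dp/+ mice (0.25). Cox8b, the isoform of subunit VIII found in muscle, was 0.55 higher in +/+ brain stem, and its difference was 0.07 in df/+ and dp/+ mice, without passing. The Cox8b value in +/+ mice rested on the marked brain stems, since it was 0.27 without them (limma adjusted p = 0.229).

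In complex V, 4 of 17 genes were higher in brain stem than in cortex in df/+ and dp/+ mice and 8 of 17 in +/+ mice, and without the marked brain stems 4 in df/+ and dp/+ mice and 5 in +/+ mice. The complex V count in df/+ and dp/+ mice was near the background, since 17.4% of all genes were higher there. Atp5o, the peripheral stalk subunit that joins the stalk to the catalytic head, read 11.04 and 11.29 in df/+, 11.00, 11.18 and 11.36 in dp/+ and 11.52, 11.29 and 11.32 in +/+ brain stems. In cortex it read 11.02 and 10.66 in df/+, 10.46 and 10.80 in dp/+ and 10.84, 10.76 and 10.45 in +/+ mice. The 2 regions did not overlap within any genotype, although in df/+ mouse 1 they differed by little. The difference was 0.41 ± 0.095 (SE, limma adjusted p = 0.00231) in df/+ and dp/+ mice and 0.69 ± 0.11 (adjusted p = 0.000209) in +/+ mice. Atp5g3 and Atp5g1, which encode the same mature c-ring subunit, were higher in brain stem by 0.32 (Atp5g3) and 0.29 (Atp5g1) in df/+ and dp/+ mice and by 0.49 and 0.41 in +/+ mice. Atp5a1, a gene of the catalytic head, passed in df/+ and dp/+ mice (0.27), and the small subunit gene Atp5j2 passed in +/+ mice (0.52).

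Each region was also measured against the mean of the other 3. In brain stem, 49 of the 93 genes were higher and 2 lower in df/+ and dp/+ mice, where 25.1% of all genes were higher and 23.9% lower. In +/+ mice 31 were higher and 1 lower, where 15.9% of all genes were higher and 14.3% lower. Without the 3 marked brain stem samples, 41 were higher and 1 lower in df/+ and dp/+ mice (median 0.15, against 0.14 with them). In +/+ mice, with 1 brain stem left, 8 were higher and 0 lower, where 9.22% of all genes were higher and 6.15% lower, so that count was near the background. The number called higher was 31 in df/+ and dp/+ mice without df/+ mouse 2, and in +/+ mice it was 17 without +/+ mouse 2 and 16 without +/+ mouse 3.

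In cortex, 18 of the 93 genes were lower and 5 higher in df/+ and dp/+ mice, where 17.3% of all genes were lower and 19.1% higher, so the number of lower genes was near the background. That number was 8 without dp/+ mouse 1, and with arrays centred on their medians 9 were lower and 8 higher. In +/+ mice 43 were lower and 3 higher, where 17.8% of all genes were lower and 16.9% higher, and 25 were lower without +/+ mouse 3.

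The olfactory bulb differed between the groups of mice in how many genes were called. In df/+ and dp/+ mice, 41 of 93 genes were lower in the bulb than in the other regions and 1 was higher, where 25.4% of all genes were lower and 20% higher. In +/+ mice, 14 were lower and 15 higher, where 21.2% of all genes were lower and 15.3% higher. Without the bulb of +/+ mouse 1, 17 were lower and 6 higher in +/+ mice. With a whole mouse left out, the number of lower genes was 26 in df/+ and dp/+ mice without df/+ mouse 1 and 22 without dp/+ mouse 2, and in +/+ mice it was 6 without +/+ mouse 2 or +/+ mouse 3. The number of higher genes in +/+ mice was 4 without +/+ mouse 1 and 9 without +/+ mouse 2. The interaction of genotype and region called 0 of the 93 genes (limma, smallest adjusted p = 0.177), where it called 0.216% of all genes. At an unadjusted p under 0.05, 12 of the 93 (12.9%) passed, where 9.82% of all genes did. The interaction was an F test over all regions and genotypes at once. It did not single out the bulb, so it does not decide whether the bulb differed between the groups. That F test was added after the data had been seen.

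In cerebellum the calls ran both ways. There, 10 of 93 genes were higher and 10 lower than in the other regions in df/+ and dp/+ mice, where 28.3% of all genes were higher and 25.4% lower. In +/+ mice 12 were higher and 7 lower, where 20.9% of all genes were higher and 18.1% lower. Both counts lay below the background in each group of mice, and their balance changed with the scaling. With arrays centred on their medians 5 were higher and 14 lower in df/+ and dp/+ mice, and 6 were higher and 18 lower in +/+ mice. With cyclic loess 21 were higher and 7 lower in df/+ and dp/+ mice. Leaving out a mouse gave between 5 and 13 higher and between 5 and 11 lower genes in df/+ and dp/+ mice, and between 4 and 13 higher and between 2 and 11 lower genes in +/+ mice.

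The isoform pairs of complexes IV and V had regional patterns of their own. Cox6a2, the heart and skeletal muscle isoform of subunit VIa, read 7.68 and 8.06 in df/+, 8.18, 7.69 and 7.89 in dp/+ and 7.64, 7.40 and 7.55 in +/+ cerebellum. In cortex it read 8.52 and 8.33 in df/+, 8.41 and 8.50 in dp/+ and 8.18, 8.24 and 8.26 in +/+ mice, above every cerebellum value of the same genotype. Cortex lay above cerebellum in this way for 2 genes of the set (2.15%), against 17.6% of all genes. Against the other regions Cox6a2 was lower in cerebellum by -0.30 ± 0.11 (SE, limma adjusted p = 0.0282) in df/+ and dp/+ mice and by -0.71 ± 0.090 (adjusted p = 7.36e-06) in +/+ mice. Cox7a1, the other muscle-type isoform, ran the opposite way and was higher in cerebellum by 0.54 in df/+ and dp/+ mice and by 0.57 in +/+ mice. Skeletal muscle markers averaged 6.88 to 7.36 in all 31 samples.

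Cox4i2, an isoform of subunit IV known for its role in oxygen sensing in the lung, was higher in cerebellum by 0.34 in df/+ and dp/+ mice and 0.23 in +/+ mice. Cox6b2, known from testis, was higher in cerebellum by 0.53 in df/+ and dp/+ mice and 0.28 in +/+ mice. Ndufa4, named for complex I and since assigned to complex IV, was higher in cerebellum by 0.35 in df/+ and dp/+ mice and 0.43 in +/+ mice. In +/+ mice the calls of Cox4i2 (0.24, limma adjusted p = 0.0682) and Cox6b2 (0.23, limma adjusted p = 0.168) were lost without the marked brain stems, which enter the mean of the other regions. Cox7a2, the widely expressed isoform of subunit VIIa, and Cox7b passed the test over the 4 regions in both groups of mice, and Cox7a2l, which takes part in joining complexes III and IV, passed in +/+ mice. Cox5b, Cox6b1, Cox6c and Cox8c passed it in df/+ and dp/+ mice and did not pass in +/+ mice, while Cox7b2, Cox8a and Ndufa4l2 passed in neither.

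Among the c-ring isoforms, Atp5g2 was the only gene of the set called higher in the bulb in both groups of mice. It read 12.18 and 12.21 in df/+, 12.15, 12.17 and 12.38 in dp/+ and 12.60, 12.38 and 12.23 in +/+ bulbs. In cortex it read 11.97 and 11.88 in df/+, 11.72 and 11.71 in dp/+ and 11.80, 11.80 and 11.56 in +/+ mice, below every bulb value. Atp5g2 was the only gene of the set (1.08%) with all bulb values above all cortex values, against 6.95% of all genes. The bulb stood above the other regions by 0.26 ± 0.044 (SE, limma adjusted p = 7.32e-05) in df/+ and dp/+ mice and by 0.55 ± 0.073 (adjusted p = 1.56e-05) in +/+ mice, and by 0.48 without the bulb of +/+ mouse 1. Its promoter stretch with the NRF-1 motif is shown above. Among the 77 genes with a promoter window, those with that motif had a median brain stem to cortex difference of 0.17 in df/+ and dp/+ mice and 0.28 in +/+ mice, against 0.15 in df/+ and dp/+ mice and 0.28 in +/+ mice for genes without it. Genes with the ETS core had medians of 0.10 in df/+ and dp/+ mice and 0.12 in +/+ mice, against 0.17 in df/+ and dp/+ mice and 0.31 in +/+ mice for genes without it; neither difference carries a test.

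The plot of single genes gives these isoforms and the leading genes of the other complexes by sample.

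**Figure D4:**
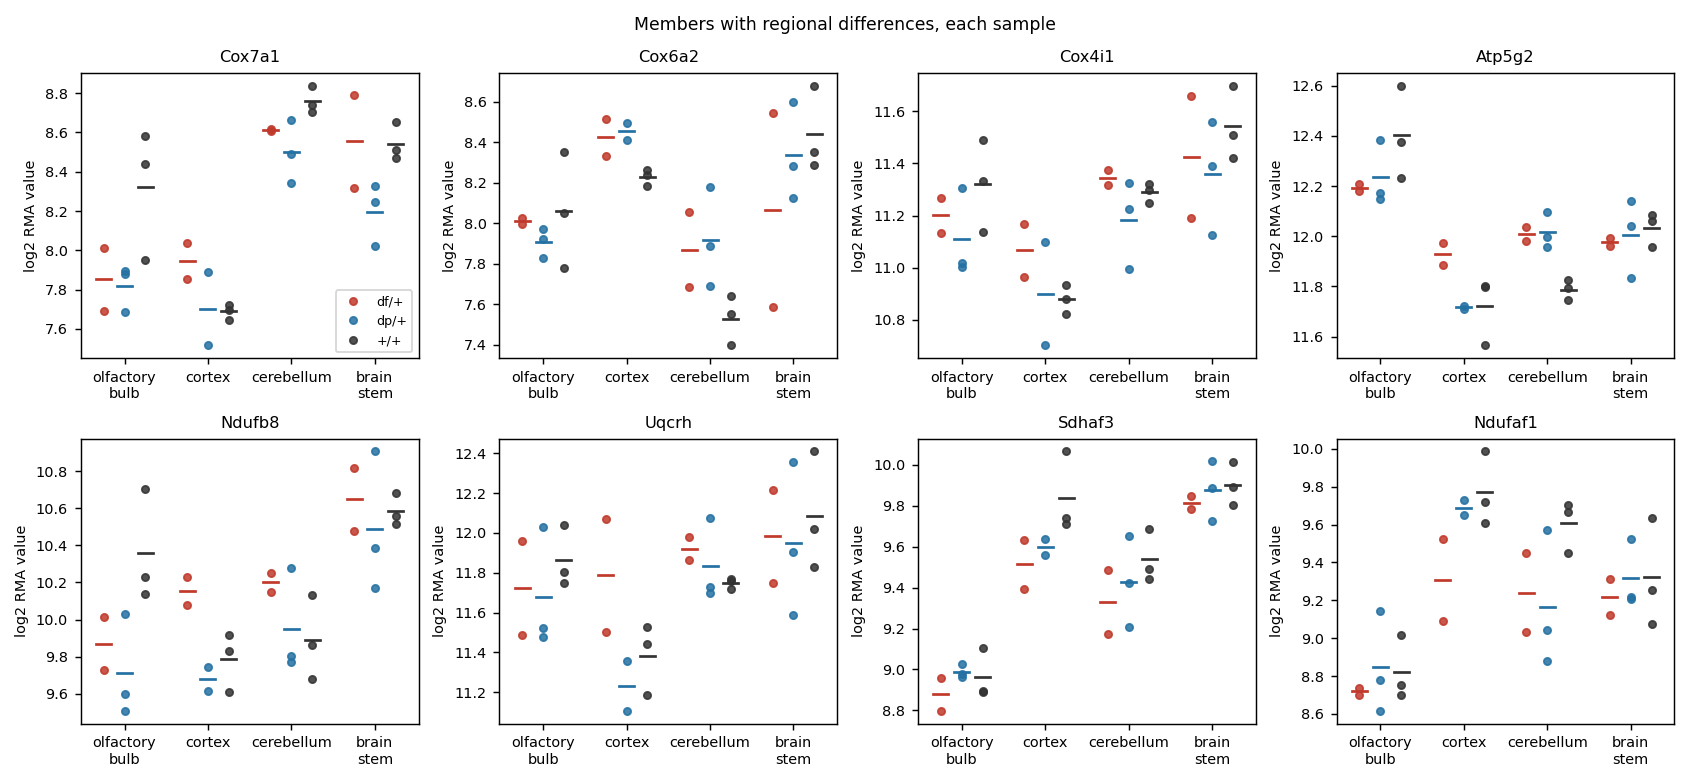
Log2 RMA values (vertical axes) of Cox7a1, Cox6a2, Cox4i1, Atp5g2, Ndufb8, Uqcrh, Sdhaf3 and Ndufaf1 in each sample, by region (horizontal axes) and genotype (df/+ red, dp/+ blue, +/+ dark grey); points are mice and bars are group means. Cox7a1 is low in cortex and high in cerebellum, Cox6a2 is low in cerebellum, Atp5g2 is high in bulb, and Sdhaf3 and Ndufaf1 are low in bulb.

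The assembly factors, which help to build the complexes and are not part of the finished enzymes, did not follow the subunits in their median. Some of them, such as Ndufaf5, were still among the genes called higher in brain stem than in cortex in each group of mice. Their median brain stem to cortex difference was -0.036 in df/+ and dp/+ mice and -0.031 in +/+ mice. In the bulb, 6 of 11 were lower than in the other regions and 0 were higher in each group of mice, also without the bulb of +/+ mouse 1. Of all genes, 25.4% were lower in the bulb in df/+ and dp/+ mice and 21.2% in +/+ mice. Sdhaf3, which matures the iron-sulfur subunit of complex II, read 8.80 and 8.96 in df/+, 8.96, 8.98 and 9.03 in dp/+ and 9.10, 8.89 and 8.89 in +/+ bulbs, and every sample of the other regions lay above 9.10. Sdhaf3 was the only gene of the set (1.08%) with all bulb values below those of the other regions, against 2.7% of all genes. It was lower in the bulb by -0.66 ± 0.067 (SE, limma adjusted p = 1.93e-07) in df/+ and dp/+ mice and by -0.80 ± 0.081 (adjusted p = 8.73e-07) in +/+ mice, and by -0.92 without the bulb of +/+ mouse 1. Ndufaf1, which assembles the membrane arm of complex I, was lower in the bulb by -0.51 in df/+ and dp/+ mice and -0.74 in +/+ mice, and higher in cortex by 0.36 in df/+ and dp/+ mice and 0.52 in +/+ mice.

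Ndufaf2, which acts late in complex I assembly, was lower in the bulb by -0.47 in df/+ and dp/+ mice and -0.64 in +/+ mice, and higher in the brain stem by 0.62 in df/+ and dp/+ mice and 0.59 in +/+ mice. Ndufaf6, another factor for complex I, was lower in the bulb by -0.28 in df/+ and dp/+ mice and -0.44 in +/+ mice. Sdhaf1, a partner of Sdhaf3 on the same subunit, was lower in the brain stem by -0.31 in df/+ and dp/+ mice and -0.23 in +/+ mice, and higher in the cerebellum by 0.45 in df/+ and dp/+ mice and 0.28 in +/+ mice. Ndufaf5, which modifies a core subunit of complex I, was 0.38 higher in brain stem than in cortex in df/+ and dp/+ mice and 0.27 higher in +/+ mice. Without the marked brain stems the +/+ calls were lost for Sdhaf1 in the brain stem (-0.12, limma adjusted p = 0.634) and for Ndufaf5 (0.34, limma adjusted p = 0.121).

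Copy number of the segment was then compared across the whole brain, with 1 value per mouse, the mean over its regions of the difference from the +/+ regional mean. None of the 93 genes lies in the segment, although 10 lie on chromosome 7. A linear fit on the log2 number of copies called 0 of the 93 genes (limma, 0 at an unadjusted p under 0.05), where 0.11% of all genes were called and 6.87% had an unadjusted p under 0.05. The smallest p-values belonged to the accessory subunits Ndufa3 (slope 0.09) and Ndufc1 (-0.13) of complex I and the assembly factor Ndufaf5 (-0.08), with a limma adjusted p of 0.72 for each.

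In df/+ against +/+ mice 0 of 93 genes were called across the brain (10, or 10.8%, at an unadjusted p under 0.05), where 0.115% of all genes were called and 6.75% had an unadjusted p under 0.05. The smallest p-values belonged to Ndufb3, an accessory subunit of complex I (-0.35, limma adjusted p = 0.225), Atp5k, a membrane subunit of complex V (-0.30, adjusted p = 0.462), and Uqcr11 (-0.25, adjusted p = 0.566). In dp/+ against +/+ mice 1 of 93 was called (18, or 19.4%, at an unadjusted p under 0.05), where 1.86% of all genes were called, 0.381% were called lower and 23.7% had an unadjusted p under 0.05. The unadjusted share of the set lay below that of the array in dp/+ mice. Both contrasts use the same 3 +/+ mice.

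That gene was Uqcr11, a small subunit of complex III. Its deviations from the +/+ regional means averaged -0.25 and -0.25 in the df/+ mice, -0.60, -0.32 and -0.53 in the dp/+ mice, and -0.09, 0.07 and 0.02 in the +/+ mice. Every df/+ and dp/+ mouse lay below every +/+ mouse, as for 6 of the 93 genes (6.45%) and 4.49% of all genes. The dp/+ difference was -0.48 ± 0.073 (SE, limma adjusted p = 0.0141), and the adjusted p was 0.0754 without +/+ mouse 2, 0.0503 without +/+ mouse 3 and 0.092 with a trended robust prior. Ndufb3 had deviations of -0.28 and -0.41 in df/+, -0.23, -0.28 and -0.25 in dp/+, and -0.01, 0.13 and -0.12 in +/+ mice, also without overlap. Its dp/+ difference of -0.25 did not pass (limma adjusted p = 0.0679).

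The set as a whole had small negative medians. The median difference was -0.041 in df/+ mice (59 of 93 genes or 63.4% below 0, all genes -0.013 with 57.1% below 0) and -0.077 in dp/+ mice (76 of 93 or 81.7% below 0, all genes -0.0066 with 52.2% below 0). All 11 assembly factors were below 0 in dp/+ mice. Without the bulb of +/+ mouse 1 the median was -0.011 in df/+ and -0.050 in dp/+ mice, and without the marked brain stems -0.020 in df/+ and -0.064 in dp/+ mice. These counts carry no test, and the genes of a sample move together.

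Within the olfactory bulb, where the medians were most negative, 1 gene was called in df/+ mice (21, or 22.6%, at an unadjusted p under 0.05), where 0.291% of all genes were called and 10.7% had an unadjusted p under 0.05. In dp/+ bulbs 4 genes were called, all lower, where 2.27% of all genes were called and 1.06% were called lower. The median difference was -0.17 in df/+ bulbs (84 of 93 genes or 90.3% below 0) and -0.16 in dp/+ bulbs (81 of 93 or 87.1% below 0), against -0.015 in df/+ (54.3% below 0) and 0.0049 in dp/+ bulbs (48.7% below 0) for all genes. Without the bulb of +/+ mouse 1 these medians were -0.080 in df/+ and -0.058 in dp/+ bulbs, and 0 genes were called in either. The median deviation of the 93 genes from their +/+ bulb means was 0.19 in +/+ mouse 1, -0.03 in +/+ mouse 2 and -0.17 in +/+ mouse 3. The +/+ bulbs thus differed among themselves by more than the median difference between genotypes. Oligodendrocyte markers were lower in the bulb by a median of -0.19 in df/+ and -0.34 in dp/+ mice, with 1 of 4 called in dp/+, and their part in the result was not tested.

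Ndufa7, an accessory subunit of complex I, was called in both genotypes. It read 9.20 and 9.33 in df/+ bulbs, 9.32, 9.24 and 9.46 in dp/+ bulbs, and 10.33, 9.86 and 9.62 in +/+ bulbs. All df/+ and dp/+ values lay below all +/+ values, as for 7 of the 93 genes (7.53%) and 4.82% of all genes. The difference was -0.67 in df/+ (limma adjusted p = 0.0294) and -0.59 in dp/+ mice (adjusted p = 0.0169). Without the bulb of +/+ mouse 1 it was -0.46 in df/+ (limma adjusted p = 0.236) and -0.39 in dp/+ mice (adjusted p = 0.105).

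The other called genes of the dp/+ bulb were Ndufb8, Cox7a1 and Ndufs8, a core subunit of complex I that carries iron-sulfur clusters. Ndufb8 read 9.60, 9.51 and 10.03 in dp/+ bulbs, against 10.71, 10.23 and 10.14 in +/+ bulbs (difference -0.65, limma adjusted p = 0.0353). Cox7a1 read 7.88, 7.68 and 7.89 in dp/+ bulbs, against 8.58, 8.44 and 7.95 in +/+ bulbs (-0.51, limma adjusted p = 0.0426). Ndufs8 read 10.93, 11.15 and 11.18 in dp/+ bulbs, against 11.93, 11.46 and 11.25 in +/+ bulbs (-0.46, limma adjusted p = 0.0441). The groups did not overlap for any of the 3, and +/+ mouse 1 held the highest value each time. In all, 14 of the 93 genes (15.1%) and 8.82% of all genes were lower in every dp/+ bulb than in any +/+ bulb. Without its bulb the differences were -0.47, -0.39 and -0.27, and none passed (limma adjusted p from 0.200 to 0.251).

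Within the cerebellum 0 genes were called in df/+ mice (5, or 5.38%, at an unadjusted p under 0.05), where 0.0702% of all genes were called and 8.78% had an unadjusted p under 0.05. In every df/+ cerebellum, 17 of the 93 genes lay above all +/+ cerebellum values and 18 lay below them all. Of all genes, 8.18% lay above and 19.2% below in df/+ cerebella. In dp/+ mice 4 were called, all lower, where 5.54% of all genes were called and 3.26% were called lower, so the count was near the background. Uqcr11 read 9.95 and 9.71 in df/+, 9.74, 9.54 and 9.55 in dp/+, and 10.29, 10.53 and 10.36 in +/+ cerebella, with every df/+ and dp/+ value below every +/+ value, as for 12 of the 93 genes (12.9%) and 11.1% of all genes. It was lower in dp/+ mice by -0.78 ± 0.18 (SE, limma adjusted p = 0.0225), and its df/+ difference of -0.56 did not pass (adjusted p = 0.446). The dp/+ call was lost without dp/+ mouse 1 and without +/+ mouse 2.

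The other called genes of the dp/+ cerebellum were Ndufb2, Ndufaf5 and Ndufaf7. Ndufb2, an accessory subunit of complex I, read 8.45, 8.48 and 8.55 in dp/+, against 8.89, 9.02 and 9.28 in +/+ mice (-0.56, limma adjusted p = 0.0399). Ndufaf5 read 7.92, 8.08 and 8.11 in dp/+, against 8.42, 8.44 and 8.32 in +/+ mice (-0.36, limma adjusted p = 0.0459). Ndufaf7, which methylates a core subunit of complex I, read 7.74, 7.76 and 7.98 in dp/+, against 8.17, 8.20 and 8.09 in +/+ mice (-0.33, limma adjusted p = 0.0478). None of these 3 pairs of groups overlapped, which was as common on the whole array, since 19 of the 93 genes (20.4%) and 20.3% of all genes were lower in every dp/+ cerebellum than in any +/+ cerebellum. Each call was lost when dp/+ mouse 1 or any single +/+ mouse was left out. The assembly factors as a group had a median of -0.28 in the dp/+ cerebellum, with 10 of 11 below 0, against -0.019 for all genes with 53.3% below 0.

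In cortex and brain stem 0 of 93 genes were called in either genotype (limma), where 0.1% of all genes were called in df/+ and 0% in dp/+ cortex, and 0.211% in df/+ and 0.015% in dp/+ brain stem. At an unadjusted p under 0.05, 14 of the 93 (15.1%) passed in df/+ cortex, where 6.01% of all genes did, and 1 (1.08%) passed in dp/+ cortex, where 15.8% of all genes did. In brain stem 2 (2.15%) passed in each genotype, where 4.17% of all genes did in df/+ and 3.56% in dp/+ mice. The cortex median was positive in df/+ mice (0.09, 63 of 93 genes above 0, 46.3% of all genes above 0) and -0.02 in dp/+ mice. In every df/+ cortex sample, 28 of the 93 genes lay above all +/+ cortex values and 6 lay below them all. Of all genes, 8.76% lay above and 14.3% below in df/+ cortex. In dp/+ cortex 12 of the 93 lay above and 6 below, where 25.9% of all genes lay above and 13.9% below. The brain stem medians were -0.06 in df/+ and -0.07 in dp/+ mice. Without the 3 marked brain stem samples, and so against 1 +/+ brain stem, they were 0.00041 in df/+ and 0.052 in dp/+ mice. The copy number slope was not called different between regions for any gene of the set (limma interaction, 0 of 93 at an unadjusted p under 0.05), where 0.0502% of all genes were called and 1.91% had an unadjusted p under 0.05. A linear slope registers little of a shift that df/+ and dp/+ mice share, so this test does not decide whether regions differ in such a shift.

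The plot of genotype differences gathers the 93 genes of each contrast.

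**Figure D5:**
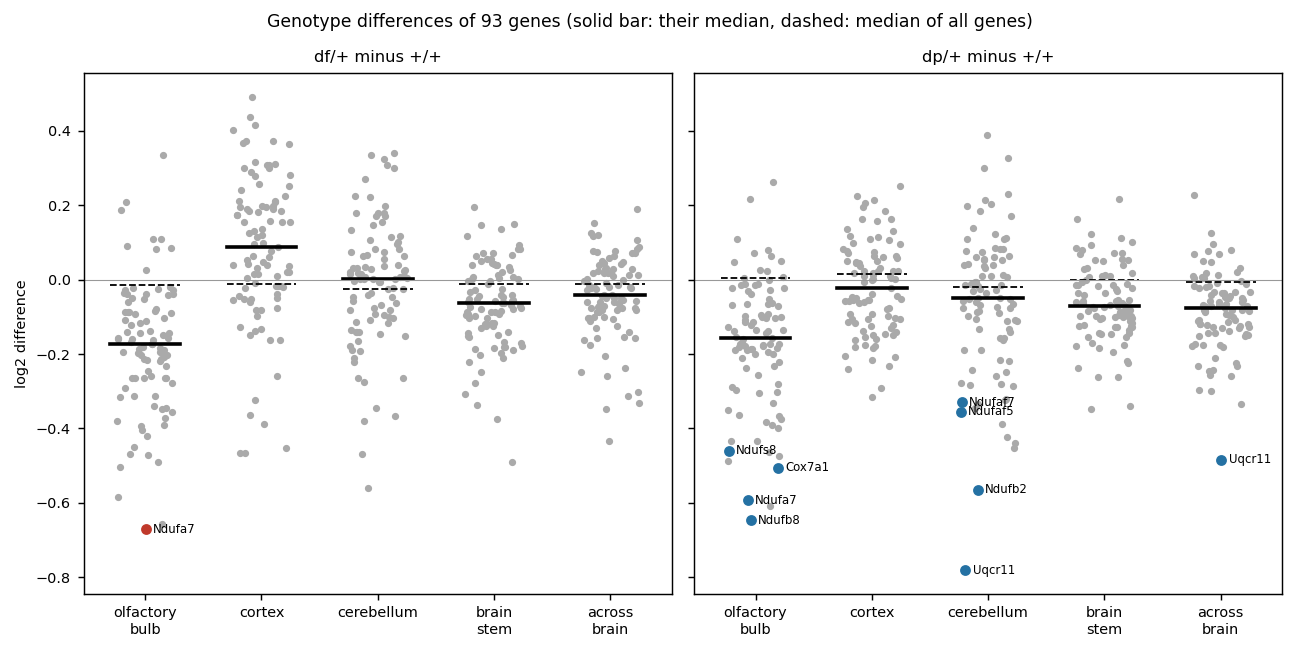
Difference from +/+ mice (log2, vertical axis) of each of the 93 genes in df/+ mice (left) and dp/+ mice (right), by region and across the brain; solid bars are the medians of the 93 genes, dashed bars the medians of all genes, and coloured named points passed the limma test. The solid bars lie farthest below the dashed bars in the olfactory bulb, and every named point is below 0.

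Other gene lists of energy metabolism give the setting of these results. Of all genes, 17.4% were higher and 14.9% lower in brain stem than in cortex in df/+ and dp/+ mice. In +/+ mice 13.9% were higher and 13.4% lower. The mitochondrial ribosome and biogenesis counts of higher genes in df/+ and dp/+ mice lay near that background. The shares of all genes without the marked brain stems are given above with the brain stem to cortex counts. Of 77 mitochondrial ribosome proteins, which translate the subunits encoded in mitochondrial DNA, 17 were higher and 1 lower in brain stem than in cortex in df/+ and dp/+ mice, and 22 were higher and 3 lower in +/+ mice. In the dp/+ bulb 7 of the 77 were lower, with a median of -0.21, where 1.06% of all genes were called lower. These were 2 without the bulb of +/+ mouse 1, with a median of -0.13. Of 17 measured tricarboxylic acid cycle genes, 10 were higher and 0 lower in brain stem in df/+ and dp/+ mice, and 7 were higher and 0 lower in +/+ mice. Of 12 measured glycolysis genes, 6 were higher and 2 lower in each group of mice. Of 37 other respiratory genes, which include further assembly factors, 10 were higher and 3 lower in df/+ and dp/+ mice. In +/+ mice 8 were higher and 4 lower. In the dp/+ cerebellum 4 of the 37 were lower, where 3.26% of all genes were called lower. Of 13 genes that drive mitochondrial biogenesis, 3 were higher and 1 lower in df/+ and dp/+ mice and 2 were higher and 1 lower in +/+ mice. Without the marked brain stems, mitochondrial ribosome proteins numbered 16 higher and 1 lower in df/+ and dp/+ mice and 6 higher and 2 lower in +/+ mice. The cycle genes were then 9 higher in df/+ and dp/+ mice and 2 higher in +/+ mice with 0 lower in either, and the glycolysis genes 4 higher and 2 lower in df/+ and dp/+ mice and 5 higher and 1 lower in +/+ mice. The other respiratory genes were then 8 higher and 3 lower in df/+ and dp/+ mice and 4 higher and 1 lower in +/+ mice, and the biogenesis genes 2 higher and 1 lower in df/+ and dp/+ mice and 1 higher and 0 lower in +/+ mice. Only 2 mitochondrially encoded subunits were measured, and neither was called between genotypes or between brain stem and cortex. COX2, a core subunit of complex IV, was lower in cortex than in the bulb in +/+ mice (-0.30, limma adjusted p = 0.0484). That value includes the bulb of +/+ mouse 1. COX2 did not pass the limma F test over the 4 regions in +/+ mice (adjusted p = 0.114). In df/+ and dp/+ mice its cortex to bulb difference was -0.049 (limma adjusted p = 0.51).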

How the data were processed

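RNA from 4 brain regions of 8 mice was measured on Affymetrix whole-transcript arrays (total RNA by Trizol, Ambion WT Expression kit, per the labels' protocols). The authors deposited log2 values made with RMA in Affymetrix Expression Console, per the submitters' processing notes; versions are not given in the sources used here. RMA subtracts background, quantile-normalizes and summarises probes, so a change shared by most genes would be removed, and the values of different probe sets are not on 1 scale. Levels of different genes were therefore not compared, and the planned ranking of genes by level was not used.

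Repeat arrays of a sample were averaged, although the design text counts 5 repeated samples and the labels give 6. The +/+ mouse 3 bulb is an array labelled as a technical repeat. Symbols were updated through Entrez identifiers. Each gene took its probe set with the highest mean, and the 26 other probe sets of 18 genes of the set had the same sign for brain stem minus cortex in +/+ mice. No filter on low values was used, so all 93 genes were tested.

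Tests used limma 3.58.1 in R 4.3.3, with Benjamini-Hochberg adjustment over 19938 genes and a threshold of 0.05. Across the brain, 1 value per mouse was fitted. Within regions, 12 means were fitted with the mouse as a random block (consensus correlation 0.12). Regions were compared with the mouse as a fixed block. The fits were also run on simulated data in which each gene varied independently. That run does not cover genes that move together in a sample, as those of the set did. For each comparison the text names up to 4 genes per complex with the smallest p among those called, or the 3 smallest where none was called, and the isoform genes. The genes of the set and all lists were chosen with earlier results of these data known. The number of mice limits the precision of every value. Alternatives to each choice are given in the closing section.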

Additional observations from a re-analysis of the deposited data

How the results depend on the processing

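The counts of genes that differ over the 4 regions stayed within 1.5 times their reported values under every alternative run, at 48 to 71 genes in df/+ and dp/+ mice and 42 to 61 in +/+ mice, and no gene called between genotypes changed direction. The counts of 1 direction moved more. Brain stem above cortex gave 22 to 38 genes in df/+ and dp/+ mice when a mouse was left out, against 34 as reported, and in +/+ mice 23 to 39 and, without the marked brain stems, 20, against 44. Brain stem above the other regions gave 31 to 54 in df/+ and dp/+ mice when a mouse was left out, against 49, and in +/+ mice 16 to 27, against 31, with 8 without the marked brain stems and 19 with no block for the mouse. Cortex below the others gave 8 to 18 in df/+ and dp/+ mice when a mouse was left out and 9 with arrays centred on their medians, against 18, and 25 to 33 in +/+ mice, against 43. In the bulb, leaving out a mouse gave 22 to 41 lower genes in df/+ and dp/+ mice, and 4 to 18 higher and 6 to 21 lower in +/+ mice. The +/+ bulb had 6 higher without the bulb of +/+ mouse 1, and 9 higher and 9 lower with no block for the mouse, against 15 higher and 14 lower. In cerebellum, cyclic loess gave 21 higher and centring 5 higher in df/+ and dp/+ mice, against 10, with 5 to 13 higher and 5 to 11 lower when a mouse was left out. In +/+ mice centring gave 6 higher and 18 lower there, and no block gave 6 higher and 4 lower, against 12 higher and 7 lower, with 4 to 13 higher and 2 to 11 lower when a mouse was left out. The counts between genotypes are small and moved. With array weights the copy number slope called 1 gene, against 0 as reported, and the dp/+ comparison across the brain called 6, against 1. The dp/+ comparison across the brain called 0 with a trended robust prior, 3 without the marked brain stem samples, and 0 to 3 when a mouse was left out. Within regions, the df/+ count of 1 became 0 without the bulb of +/+ mouse 1 and ranged from 0 to 3 when a mouse was left out. The dp/+ count of 8 within regions became 5 with cyclic loess, 5 with the replicate number as a block and 5 without the bulb of +/+ mouse 1, and ranged from 1 to 9 when a mouse was left out. Where a mouse was left out of df/+, the lone df/+ mouse was assumed to vary like the other groups. Taken gene by gene and alternative by alternative, the genes called between genotypes lost their call in 69 of 180 refits. The F test over the 4 regions, refitted for up to 4 genes per complex, lost its call in 9 of 571. Calls between 2 regions, or of 1 region against the others, are not part of that count. The cause of the losses was not tested. Mice with the same replicate number had correlations from -0.38 to 0.17, and mice with different numbers from -0.39 to 0.39. The values of the 2 df/+ mice mirror each other, so these few correlations do not decide whether the numbers pair the mice. The 2 alternatives without single samples were chosen after seeing the data.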

Other observations

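Atp5md, a small protein attached to complex V, had the widest spread between mice of the 93 genes, with an SD of 0.609 among animals that share genotype and region, against 0.130 for repeat arrays. It was chosen here after its values were seen. Its mean over regions was 12.30 in df/+ mouse 1 and 11.04 in df/+ mouse 2, then 11.98, 12.15 and 11.16 in the dp/+ mice, and 12.01, 12.14 and 12.16 in the +/+ mice. The values of df/+ mouse 2 and dp/+ mouse 3 ran from 10.72 to 11.62 over 7 samples, and the other 24 samples lay between 11.59 and 12.44. The lowest of those 24 was the brain stem of +/+ mouse 1. In both other probe sets of the gene the same 2 mice were the lowest, with means of 11.50 and 10.13 in df/+, 11.17, 11.35 and 10.20 in dp/+, and 11.16, 11.25 and 11.31 in +/+ mice for 1 of them. The gene was not called in df/+ (-0.43, limma adjusted p = 0.856) or dp/+ mice (-0.33, limma adjusted p = 0.481) across the brain.

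The olfactory mucosa gene Cyp2g1, also chosen after its values were seen, differed between the bulb samples. It read 6.12 and 5.66 in df/+ bulbs, 7.64, 7.59 and 7.36 in dp/+ bulbs, and 7.93, 9.05 and 7.20 in +/+ bulbs. The part of this in the bulb differences of the 93 genes was not tested.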
